A study of Mus musculus with 12 samples.

Results

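The genes described here were 10 mouse Fc receptor and myeloid C-type lectin genes of 18193 genes measured: Fcer1g, Fcgr1, Fcgr2b, Fcgr3, Fcgr4, Cd300lf, Clec7a, Clec4d, Clec4e and Clec4n. They were chosen by symbol, and every probe set that the platform annotation gives to that symbol alone was used, 17 probe sets in all. RNA came from eGFP-expressing mouse astrocytes, labelled C57Bl/6j, that had spent 22 h on a mouse brain section, and it was hybridised to 12 one-colour Affymetrix arrays in 4 groups of 3. Neonatal cells (age 3 d in the sample labels, 2 days in the culture protocol) and adult cells (6 to 8 weeks) were each placed on sections of APdE9 mice or of their wild-type C57Bl/6j littermates. APdE9 mice carry a chimeric mouse/human APPSwe and a PS1-dE9 transgene, each under a mouse prion protein promoter, and serve as a model of beta amyloid deposition. The promoter that drives eGFP and the age of the section donors are not given in the sources used here. Cells of all 4 groups were loosened with trypsin, picked off the section by suction under green fluorescence, and pooled (n = 3) before RNA isolation. The protocol also gives n = 6 for the incubations, and how these make 3 arrays a group is not stated. The arrays of a group are labelled as biological replicates, but nothing in the labels ties a pool to separate animals, so every p-value reflects just how much these pools varied, part of which may be technical. Isolation and medium went with age and cannot be told apart from it: Percoll and DMEM/F12 with G5 supplement were used for adult cells, and plain DMEM without Percoll for neonatal cells.

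Fc receptors bind the constant part of antibodies. The activating receptors Fcgr1, Fcgr3 and Fcgr4 depend on Fcer1g, the common gamma chain, a short adaptor whose cytoplasmic tail carries an immunoreceptor tyrosine-based activation motif (ITAM) that recruits the kinase Syk, while Fcgr2b carries an inhibitory motif (ITIM) that recruits phosphatases. The myeloid C-type lectins recognise glycans and glycolipids of microbes and of damaged cells: Clec7a (Dectin-1) signals through its own tail, whereas Clec4d (MCL), Clec4e (Mincle) and Clec4n (Dectin-2) couple to Fcer1g, and all of them feed the Syk and Card9 branch that drives cytokine genes. In the brain these receptors are known chiefly as genes of microglia and macrophages, and Clec7a is known as a gene that microglia raise around amyloid plaques.

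The values were RMA signals from which the median of each probe set over the 12 arrays had been taken away. They were read as log2 values, although the log base is not stated. Differences between arrays can therefore be read and levels cannot, so neither the level of a member nor the order of 2 members by abundance is given, and the astrocyte label could not be checked against the level of astrocyte markers. A value of 0 is the middle of the 12 arrays for that gene. A gene is said to have passed the test when the limma p-value, adjusted by Benjamini-Hochberg over all 18193 genes, was under 0.05. The members were proposed with results of these arrays already known, among them the difference of Cd300lf between neonatal groups, and the comparison that guided the choice is not recorded, so the tests on them are given as a description and support nothing beyond it.

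Promoter sequences of the members were set beside each other because all 10 genes moved together with age. The stretches below, from RefSeq on GRCm38.p6, are the 250 bases before the annotated start of transcription, read 5′ to 3′ on the gene's own strand. Capitals mark GAGGAA or its reverse complement TTCCTC, a form of the site read by PU.1 (Spi1), a transcription factor of myeloid cells. Shorter or other forms of that site were not searched. Shown are the members whose section difference passed a test (Cd300lf, Fcgr4, Fcgr1 and Clec4d), Clec4e for its spread among neonatal arrays, and the shared adaptor Fcer1g, which lacked these letters.
Fcer1g, chr1:171234350-171234599, minus strand: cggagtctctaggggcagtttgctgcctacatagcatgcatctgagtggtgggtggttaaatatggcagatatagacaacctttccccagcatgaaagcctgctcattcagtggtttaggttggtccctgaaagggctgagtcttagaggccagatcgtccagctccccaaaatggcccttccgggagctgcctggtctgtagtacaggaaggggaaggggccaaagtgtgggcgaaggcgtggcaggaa
Fcgr1, chr3:96293970-96294219, minus strand: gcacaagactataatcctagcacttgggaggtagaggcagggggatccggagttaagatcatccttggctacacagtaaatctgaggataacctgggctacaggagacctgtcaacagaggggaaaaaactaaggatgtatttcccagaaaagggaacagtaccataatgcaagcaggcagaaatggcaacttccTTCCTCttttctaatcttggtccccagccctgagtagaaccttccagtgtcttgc
Fcgr4, chr1:171018676-171018925, plus strand: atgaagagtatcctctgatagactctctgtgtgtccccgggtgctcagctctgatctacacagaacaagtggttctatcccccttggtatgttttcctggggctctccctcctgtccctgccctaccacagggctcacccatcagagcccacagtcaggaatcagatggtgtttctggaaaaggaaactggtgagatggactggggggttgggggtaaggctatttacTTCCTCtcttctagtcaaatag
Cd300lf, chr11:115133993-115134242, minus strand: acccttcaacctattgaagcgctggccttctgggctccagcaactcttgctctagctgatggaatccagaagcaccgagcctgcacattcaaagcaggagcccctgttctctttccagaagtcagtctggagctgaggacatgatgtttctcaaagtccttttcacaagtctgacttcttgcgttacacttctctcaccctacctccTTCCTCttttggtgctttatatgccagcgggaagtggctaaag
Clec4d, chr6:123261857-123262106, plus strand: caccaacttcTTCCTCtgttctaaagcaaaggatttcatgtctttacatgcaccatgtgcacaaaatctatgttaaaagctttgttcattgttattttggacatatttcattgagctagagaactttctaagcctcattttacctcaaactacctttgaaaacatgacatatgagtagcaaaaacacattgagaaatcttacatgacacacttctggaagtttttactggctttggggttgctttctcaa
Clec4e, chr6:123289872-123290121, minus strand: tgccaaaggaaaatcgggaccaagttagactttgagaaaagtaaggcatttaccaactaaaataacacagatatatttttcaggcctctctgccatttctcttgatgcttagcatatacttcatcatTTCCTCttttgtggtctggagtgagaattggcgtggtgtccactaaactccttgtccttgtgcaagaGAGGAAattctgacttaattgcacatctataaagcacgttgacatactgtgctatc

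The letters GAGGAA or TTCCTC were present in 7 of the 9 member promoters in the table used, against 23.1% of 27025 promoters of the same length. Fcgr1, Fcgr3, Fcgr4, Cd300lf, Clec7a and Clec4d had 1 match each and Clec4e had 2, while Fcer1g and Fcgr2b had none. Counted from the start of transcription, the match began at -22 in Fcgr4, -43 in Cd300lf, -55 in Fcgr1 and -240 in Clec4d. Other motifs were searched on both strands in the same way. TTCNNNGAA, the site of STAT factors, was found only in Fcgr1 among the 9, against 7.11% of all promoters. TTGCNNAA, a C/EBP site, was found in Clec4e and Fcgr3 and in 9.53% of all, and TATAAA in Cd300lf and Clec4e and in 12.9% of all. TGANTCA, an AP-1 site, was in none of the 9 and in 6.87% of all. TTCCTC can lie inside TTCNNNGAA, and no 2 matches overlapped in the members. The motifs were searched after the values were known, and a match describes letters only.

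All 10 genes differed with the age of the cells. Each member was higher on all 6 neonatal arrays than on all 6 adult arrays, as the plot of values by array shows. The group means ran from neonatal APdE9 through neonatal wild-type and adult APdE9 to adult wild-type in 9 of 10 genes, and in Cd300lf the adult means were all but equal, at -0.88 and -0.89. On wild-type sections the adult minus neonatal difference ran from -5.95 (Clec4d) to -1.36 (Cd300lf), with a median of -4.13 against 0.012 over all genes. All 10 members passed the test there, with adjusted p-values between 4.15e-11 and 0.000658 (limma), where 15.2% of all genes were lower in adult cells by the same test. Their groups did not overlap in any of the 10, against 20.3% of all genes on that side. On APdE9 sections the differences ran from -5.26 (Clec4n) to -2.32 (Fcgr2b), with a median of -4.22 against 0.053 over all genes. Again all 10 passed, with adjusted p-values between 6.01e-10 and 0.000938, against a background of 11.9% lower by the test and 16.4% lower without overlap.

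**Figure D1:**
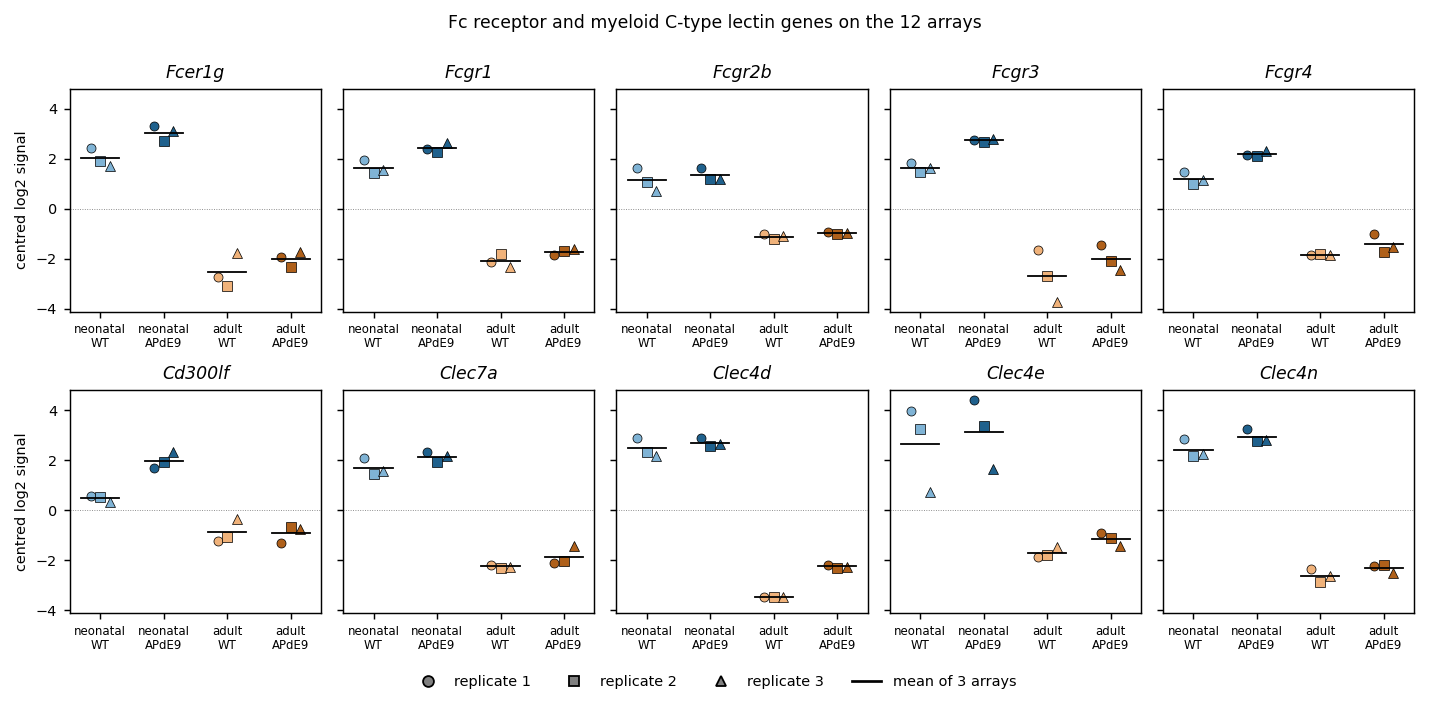
Centred log2 signal of the 10 genes (vertical axis, 1 panel a gene) on the 12 arrays, by cell age and section (horizontal axis); symbols mark the replicate numbers and bars the mean of 3 arrays. All neonatal arrays lie above 0 and all adult arrays below 0 in every panel, and Clec4e has the widest spread among neonatal arrays.

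Fcer1g, the adaptor that the activating Fc receptors and the Clec4 lectins share, stood at 2.42, 1.90 and 1.72 in neonatal cells on wild-type sections and at 3.31, 2.72 and 3.09 on APdE9 sections. In adult cells it stood at -2.75, -3.08 and -1.78 on wild-type sections and at -1.95, -2.34 and -1.72 on APdE9 sections. The neonatal groups did not overlap, with every APdE9 array higher, while the adult groups did. The neonatal difference was 1.03 ± 0.30 (SE, n = 3 and 3) and missed the test (limma adjusted p = 0.0922). It passed with the replicate number as a block (limma adjusted p = 0.0299), though the labels state no pairing of arrays. It also passed when the adult wild-type array numbered 3 was left out, which changes only the shared spread (limma adjusted p = 0.0258). The adult difference was 0.53 ± 0.30 (limma adjusted p = 0.258), and without that same array it was 0.91 with a limma adjusted p of 0.0260. Without the adult wild-type array numbered 2 it was 0.26 (limma adjusted p = 0.667), and after quantile normalization 0.087 (limma adjusted p = 0.875).

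Among the activating Fc receptors, Fcgr4 and Fcgr1 were higher in neonatal cells on APdE9 than on wild-type sections. Fcgr4, which binds IgG2 antibodies, stood at 1.47, 1.00 and 1.14 on wild-type and at 2.16, 2.12 and 2.29 on APdE9 sections. The groups were well apart, and the difference was 0.99 ± 0.17 (95% interval 0.63 to 1.35, limma adjusted p = 0.00623). Leaving out any single array kept it past the test, with values from 0.88 to 1.12. In adult cells Fcgr4 stood at -1.86, -1.83 and -1.86 on wild-type and at -1.0, -1.74 and -1.53 on APdE9 sections. All 3 adult APdE9 arrays were higher than the wild-type arrays, whose SD was 0.02, but the difference of 0.43 ± 0.17 missed the test (limma adjusted p = 0.0983). It passed only without the adult APdE9 array numbered 2 among the arrays left out in turn (0.59, limma adjusted p = 0.0366). Without the adult APdE9 array numbered 1 it was 0.22, and after quantile normalization 0.093 (limma adjusted p = 0.774).

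Fcgr1, the high-affinity receptor for IgG, stood at 1.94, 1.44 and 1.55 in neonatal cells on wild-type sections and at 2.40, 2.25 and 2.62 on APdE9 sections. These groups did not overlap, and the difference was 0.78 ± 0.16 (95% interval 0.45 to 1.12, limma adjusted p = 0.0158). This call was close to the threshold. Without the neonatal wild-type array numbered 2, without the wild-type array numbered 3 and without the APdE9 array numbered 3, limma adjusted p was 0.0888, 0.0552 and 0.0603. In a fit of the neonatal arrays alone it was 0.0528. Its probe sets 1417876_at and 1436625_at differed by 0.90 ± 0.21 and 0.67 ± 0.18, and neither passed alone (limma adjusted p = 0.0563 and 0.0936 over all probe sets). In adult cells Fcgr1 stood at -2.12, -1.83 and -2.35 on wild-type and at -1.85, -1.69 and -1.62 on APdE9 sections, which overlap, and the difference of 0.38 ± 0.16 missed the test (limma adjusted p = 0.117) and was 0.049 after quantile normalization.

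Fcgr3, the low-affinity activating receptor, had the tightest neonatal APdE9 group of the Fc receptors and the loosest adult groups. It stood at 1.81, 1.46 and 1.61 on neonatal wild-type arrays and at 2.75, 2.66 and 2.79 on neonatal APdE9 arrays, which do not overlap. On adult arrays it stood at -1.64, -2.69 and -3.72 on wild-type and at -1.46, -2.10 and -2.47 on APdE9 sections, so the adult wild-type arrays alone spanned 2.08. That wide adult spread entered the shared error of the fit. The neonatal difference of 1.11 ± 0.40 (95% interval 0.24 to 1.97) missed the test at a limma adjusted p of 0.184, and it passed in a fit of the neonatal arrays alone (limma adjusted p = 0.00652). The adult difference was 0.68 ± 0.40 (limma adjusted p = 0.276), and without the adult wild-type array numbered 1 it was 1.20 with a limma adjusted p of 0.0212. Without the adult wild-type array numbered 3 it was 0.16 (limma adjusted p = 0.776), and after quantile normalization 0.19 (limma adjusted p = 0.761).

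Fcgr2b, the inhibitory receptor of this family, had the smallest section differences of the Fc receptors when its probe sets were averaged. Neonatal arrays ran from 0.72 to 1.62 on wild-type and from 1.19 to 1.64 on APdE9 sections, a difference of 0.21 ± 0.19 (95% interval -0.20 to 0.62, limma adjusted p = 0.737). Adult arrays ran from -1.23 to -1.02 and from -1.02 to -0.93, a difference of 0.15 ± 0.19 (95% interval -0.27 to 0.56, limma adjusted p = 0.652). The gene value is a mean over 5 probe sets that did not behave alike. Their neonatal section differences ran from -0.063 ± 0.095 (1447622_at) to 0.41 ± 0.30 (1435477_s_at). Between adult groups they ran from -0.19 ± 0.28 (1455332_x_at) to 0.59 ± 0.30 (1435477_s_at). None of these passed the test. With age on wild-type sections, 4 of them differed by -0.87 to -5.08 and passed the test, while 1447622_at differed by -0.048 ± 0.095 (limma adjusted p = 0.797). Fcgr2b, Fcgr4 and Fcgr3 follow each other on chromosome 1 in the RefSeq gene order. The nearest measured genes on either side of this run, Fcrla and Cfap126, differed with age on wild-type sections by -0.032 and -0.26, against -2.25 to -4.31 for the 3 receptors.

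Cd300lf, a receptor of the CD300 family that binds lipids of dying cells, showed the largest neonatal section difference of the 10 genes. It stood at 0.57, 0.52 and 0.34 in neonatal cells on wild-type sections and at 1.70, 1.94 and 2.32 on APdE9 sections. The 2 groups were far apart relative to their spread, with a difference of 1.51 ± 0.23 (95% interval 1.00 to 2.01, limma adjusted p = 0.00404). Leaving out each array in turn gave 1.34 to 1.65, past the test each time. In adult cells Cd300lf stood at -1.21, -1.08 and -0.34 on wild-type and at -1.29, -0.67 and -0.73 on APdE9 sections. These groups lay over each other, with a difference of -0.015 ± 0.23 (95% interval -0.52 to 0.49, limma adjusted p = 0.975). The adult section difference minus the neonatal was -1.52 ± 0.33 (95% interval -2.24 to -0.81, limma adjusted p = 0.0120), and by the same arithmetic the age difference was -1.36 on wild-type and -2.88 on APdE9 sections.

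Clec4d (MCL), a lectin that pairs with Clec4e on the cell surface, showed the opposite arrangement. In adult cells it stood at -3.47, -3.47 and -3.46 on wild-type sections and at -2.19, -2.29 and -2.26 on APdE9 sections. The groups did not overlap, and the difference was 1.22 ± 0.15 (95% interval 0.89 to 1.55, limma adjusted p = 0.000135). Without any single array it was 1.19 to 1.24, past the test each time, and after quantile normalization it was 0.57 ± 0.085, still past it (limma adjusted p = 0.000886). The adult wild-type arrays spanned 0.01 for this gene, where the median gene spanned 0.20 over the same 3 arrays. In neonatal cells Clec4d stood at 2.90, 2.34 and 2.19 on wild-type and at 2.88, 2.56 and 2.65 on APdE9 sections. These groups overlapped, with a difference of 0.22 ± 0.15 (limma adjusted p = 0.609), which became -0.027 after quantile normalization and ran from 0.074 to 0.43 with an array left out. It passed only without the neonatal wild-type array numbered 1 (limma adjusted p = 0.0371). The adult section difference exceeded the neonatal by 1.00 ± 0.21 (95% interval 0.54 to 1.47, limma adjusted p = 0.0109), and by 0.59 after quantile normalization (limma adjusted p = 0.0116). Clec4d has 1 probe set here, 1420804_s_at, of a kind that may also detect related transcripts.

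Clec7a (Dectin-1), which binds beta-glucan, and Clec4n (Dectin-2), which binds mannans, were lower in adult cells like the others and missed the test between sections. Clec7a ran from 1.44 to 2.10 on neonatal wild-type and from 1.94 to 2.32 on neonatal APdE9 arrays, a difference of 0.45 ± 0.19 (limma adjusted p = 0.298). On adult arrays it ran from -2.29 to -2.17 and from -2.12 to -1.44 without overlap, a difference of 0.38 ± 0.19 (limma adjusted p = 0.212) that became -0.026 after quantile normalization. Clec4n ran from 2.19 to 2.85 and from 2.76 to 3.27 on neonatal arrays, a difference of 0.52 ± 0.19 (limma adjusted p = 0.207). It passed with the replicate number as a block (limma adjusted p = 0.0256) and with the neonatal wild-type array numbered 1 left out (0.73, limma adjusted p = 0.0426), and ran down to 0.36 with other arrays left out (limma adjusted p = 0.509). Its adult difference was 0.32 ± 0.19 (limma adjusted p = 0.303), and -0.12 after quantile normalization.

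Clec4e (Mincle), a receptor for mycobacterial glycolipid and for a nuclear protein released by dead cells, was the least even of the members. It stood at 3.99, 3.27 and 0.75 in neonatal cells on wild-type sections and at 4.40, 3.37 and 1.67 on APdE9 sections. In both groups the array numbered 3 was by far the lowest, and the groups overlapped. The neonatal arrays spanned 3.24 and 2.72, where the median gene spanned 0.22 and 0.24. Only 5 and 6 of all genes, Clec4e included, had a span at least that wide in the 2 groups. The neonatal section difference was 0.47 ± 0.74 (95% interval -1.14 to 2.09, limma adjusted p = 0.897), so a difference as large as that of Cd300lf lies inside the interval. Adult arrays were closer together, at -1.86, -1.80 and -1.46 on wild-type and -0.92, -1.11 and -1.44 on APdE9 sections, and the difference of 0.56 ± 0.74 missed the test (limma adjusted p = 0.661) although the groups did not overlap. In a fit of the adult arrays alone it passed at a limma adjusted p of 0.0471. The probe sets of Clec4e did not behave alike there. 1420330_at differed by 1.00 ± 0.81 between adult groups, and 1420331_at by 0.11 ± 0.70 with overlapping groups.

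The genes whose 12 values lay nearest to those of Clec4e were Il1a, Cd83 and Acod1, at a mean absolute difference of 0.30, 0.31 and 0.32, while the nearest other member, Fcgr4, lay 0.88 away. Il1a, a cytokine of the interleukin 1 family, stood at 3.17, 2.90 and 0.95 on neonatal wild-type and at 3.87, 3.33 and 1.63 on neonatal APdE9 arrays. Cd83, an activation marker of antigen-presenting cells, stood at 4.89, 3.69 and 0.91 and at 4.45, 3.21 and 0.63. Acod1, which makes itaconate in activated macrophages, stood at 4.62, 3.19 and 1.07 and at 4.16, 3.09 and 2.19. All 3 were lowest on the neonatal arrays numbered 3, as Clec4e was. Clec4n and Clec4d, which follow each other with Clec4e on chromosome 6, did not stand apart on those arrays.

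**Figure D2:**
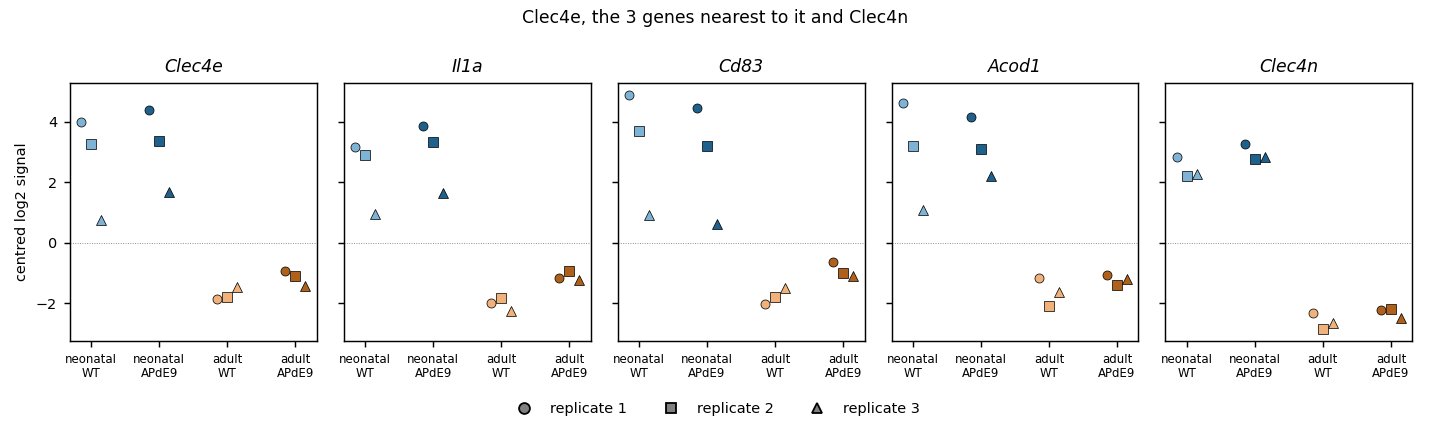
Centred log2 signal (vertical axis) of Clec4e, the 3 genes nearest to it and Clec4n on the 12 arrays, by cell age and section (horizontal axis); symbols mark the replicate numbers. On neonatal arrays Clec4e, Il1a, Cd83 and Acod1 are lowest at number 3, with Clec4e at 0.75 and 1.67 there, while Clec4n lies between 2.19 and 3.27 throughout.

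The other members had other neighbours. Fcer1g lay nearest to Cd52, Aif1 and Srgn (0.25 to 0.31), and Clec4n and Clec4d each lay near Tyrobp (0.23 and 0.22), the other ITAM adaptor of myeloid cells. Fcgr1 and Clec7a shared Csf2rb and Ms4a6d among their 3 nearest genes. The nearest to Fcgr2b were Dock10, Itgal and Ptpn6, to Fcgr3 Slc11a1, C3ar1 and Rgs1, and to Fcgr4 Milr1, Gpnmb and Rnf128. Cd300lf lay nearest to Cyth4, Gpr35 and Themis2 (0.26 to 0.29). These distances are over 12 arrays that share groups and a common age contrast, and they are a description.

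Across the members, the section difference was positive in 10 of 10 genes in neonatal cells, with a median of 0.65 against 0.0018 over all genes, of which 50.5% were positive. After quantile normalization 9 of 10 were positive, with a median of 0.46. The test was passed by 3 of the 10, all higher (Fcgr1, Fcgr4 and Cd300lf), against 1.21% of all genes called higher. Their groups did not overlap in 5 of 10 (these 3, Fcer1g and Fcgr3), against 7.31% of all genes on that side. With the replicate number as a block 5 passed, Fcer1g and Clec4n being added, against 1.78%. Without the neonatal wild-type array numbered 1, 5 passed as well, Clec4d and Clec4n being added, against 1.39% of all genes called higher. On the 8 arrays numbered 1 and 2, a subset chosen after the data were seen, Cd300lf alone passed (1.27, limma adjusted p = 0.0209), against 0.429% of all genes called higher.

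In adult cells the section difference was positive in 9 of 10 members, with a median of 0.41 against 0.049 over all genes, of which 60% were positive. This shift was small after quantile normalization, where 7 of 10 were positive and the median was 0.069 against 0.024 over all genes. That scaling was applied to the centred values and gave every array the same distribution. Whether the scaled or the unscaled size of a difference is nearer the truth was not tested. Clec4d was the only member to pass, against 8.26% of all genes called higher, a share near the background. The groups did not overlap in 5 of 10 (Fcgr2b, Fcgr4, Clec7a, Clec4d and Clec4e), against 20.3% of all genes on that side. Without the adult wild-type array numbered 1, the wild-type array numbered 3 or the APdE9 array numbered 2, 2 members passed, with Fcgr3, Fcer1g and Fcgr4 added in turn, against 6.17%, 7% and 5.73% of all genes called higher. The difference between the adult and the neonatal section differences passed in 2 of 10, Cd300lf lower and Clec4d higher, against 10.1% of all genes in either direction. For Fcgr4 that difference was -0.56 ± 0.23 (limma adjusted p = 0.172), and -0.77 without the adult APdE9 array numbered 1 (limma adjusted p = 0.0193). The age and section comparisons share groups of arrays, so their values for a gene are not independent of each other.

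**Figure D3:**
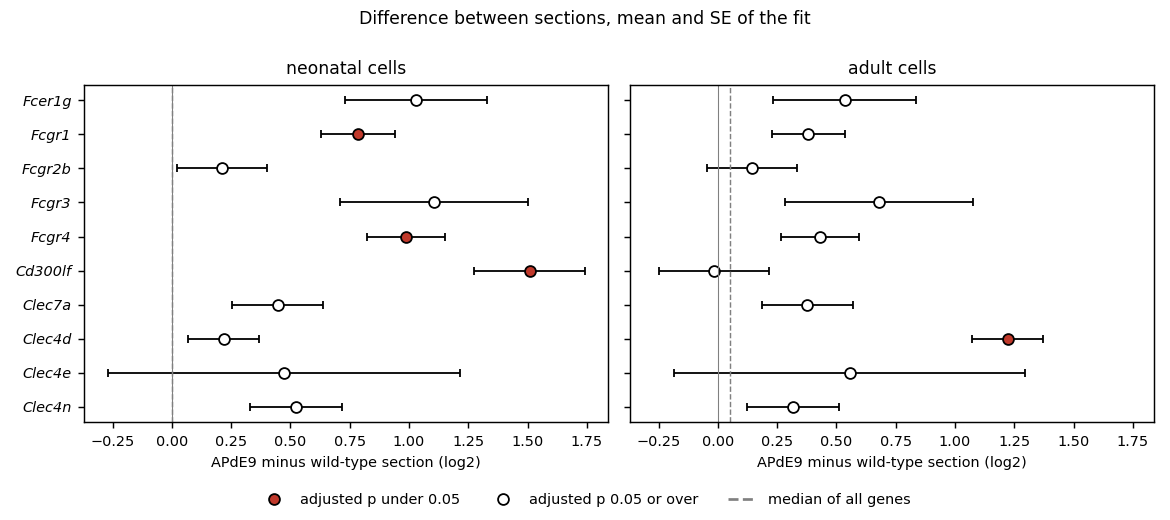
APdE9 minus wild-type section difference in log2 units (horizontal axis) for the 10 genes, in neonatal cells (left) and adult cells (right); points are the fitted difference, bars 1 SE, filled points have an adjusted p under 0.05, and the dashed line is the median of all genes. Cd300lf is farthest to the right in neonatal cells at 1.51 and lies at -0.015 in adult cells, where Clec4d is farthest at 1.22.

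Markers of microglia moved with the members. The list counts here and below stand against these counts over all 18193 genes by the same test. Between neonatal groups 220 genes were higher and 464 lower, and between adult groups 1503 and 1710. With age 2718 were higher and 2764 lower on wild-type sections, and 2121 and 2158 on APdE9 sections. The submitters' protocol gives less than 0.4% microglial cells and 99.6% ± 0.6 GFAP-positive cells in the cultures, which were shaken to remove microglia. These shares were not read separately for neonatal and adult cultures. The mean over 23 of 24 microglia markers ran from 1.11 to 1.58 on neonatal wild-type, 1.59 to 1.72 on neonatal APdE9, -1.83 to -1.60 on adult wild-type and -1.29 to -1.19 on adult APdE9 arrays. The mean over the 10 members ran in the same order, 1.38 to 2.17, 2.35 to 2.68, -2.22 to -2.04 and -1.72 to -1.59. With age on wild-type sections 20 of the 23 markers were lower by the test and 1 higher, and on APdE9 sections 20 and 0. Between neonatal groups 5 were higher and 0 lower (limma, adjusted over all genes, with 10 and 1 at an unadjusted p under 0.05), among them Ly86 (1.11 ± 0.20), P2ry13 (0.95 ± 0.20), Selplg (0.90 ± 0.22) and Aif1 (0.87 ± 0.20). Between adult groups 8 were higher and 2 lower, led by the protease gene Ctss (3.53 ± 0.22) and Cd68 (1.72 ± 0.18), with Olfml3 lower (-1.22 ± 0.089). Tyrobp, Itgam and Fcrls are in this list and in pathway lists named below. Which markers lay near 0 could not be read from centred values. The part of these cells in the results for the members was not tested, and in pooled samples fewer cells of a type and less RNA per cell cannot be told apart.

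Markers of other cell types moved less evenly. Over 14 of 15 markers of border macrophages and monocytes the mean ran from 0.75 to 1.02, 0.88 to 1.05, -1.18 to -1.04 and -0.96 to -0.86 in the same order of groups. Of these, 1 was higher between neonatal groups, Cbr2 (1.12 ± 0.13), and between adult groups 3 were higher and 2 lower. With age on wild-type sections 8 of the 14 were lower and 3 higher. Of 11 neutrophil markers measured, 1 was higher on APdE9 sections in neonatal and 3 in adult cells, Camp both times (0.84 ± 0.18 and 1.09 ± 0.18), and 3 were lower with age on each section. Of 11 mast cell and basophil markers, 1 was lower in neonatal (Kit) and 1 in adult cells (Mcpt8). None of 7 dendritic or 11 lymphocyte markers passed limma's test between sections at either age; at an unadjusted p under 0.05 there were 0 in neonatal cells, and 1 and 2 higher in adult cells. Among 16 astrocyte markers 6 were lower on APdE9 sections in neonatal cells, and in adult cells 6 were higher and 5 lower. Markers of the labelled cell type were lower with age too: 13 of the 16 were lower and 2 higher on wild-type sections, led by Aldoc (-4.98 ± 0.078), Gfap (-4.24 ± 0.11), Aqp4 (-3.73 ± 0.080) and Slc1a3 (-3.22 ± 0.094), and 11 were lower and 1 higher on APdE9 sections. Their mean ran from 1.00 to 1.06, 0.48 to 0.56, -0.69 to -0.63 and -0.71 to -0.67 in the same order of groups. Of 14 neuronal and oligodendrocyte markers measured, 2 were higher and 1 lower in neonatal cells and 4 higher and 1 lower in adult cells. The part of these cells in the differences of the members was not tested either.

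**Figure D4:**
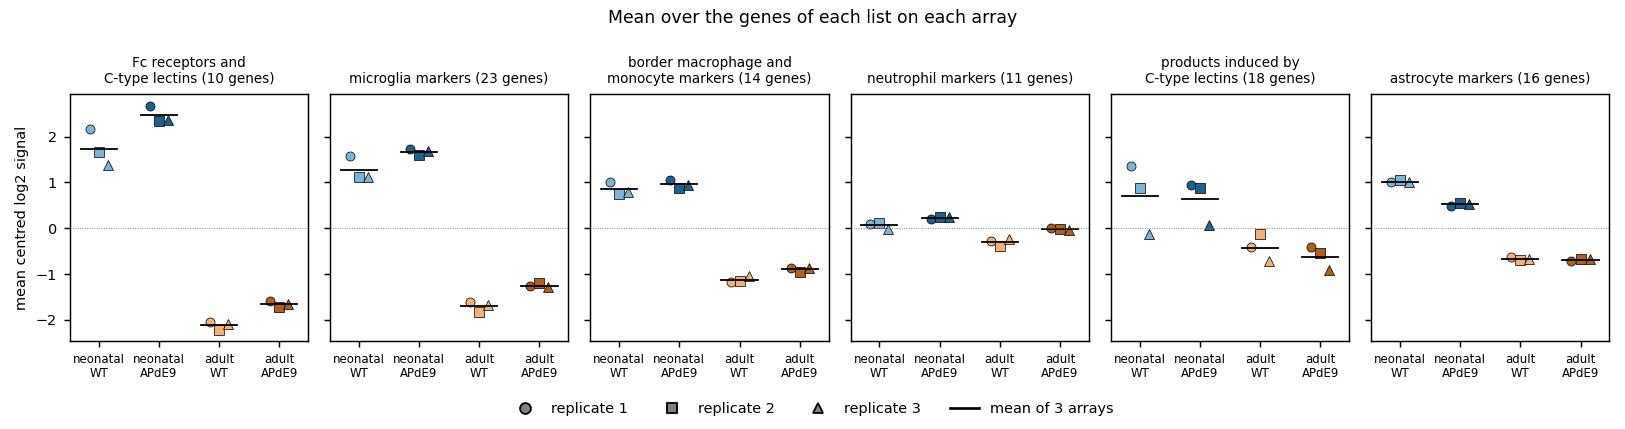
Mean centred log2 signal (vertical axis) over the genes of 6 lists on the 12 arrays, by cell age and section (horizontal axis); symbols mark the replicate numbers and bars the mean of 3 arrays. The members and the microglia markers are ordered alike, with neonatal APdE9 arrays at 2.35 to 2.68 and 1.59 to 1.72, and the products that C-type lectins induce are low on the neonatal arrays numbered 3.

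The partners of the members were followed down the pathway, from lists drawn up with earlier results of these arrays known. Of 14 other receptors and adaptors that signal through ITAMs, 10 were lower in adult cells on each section, among them Itgb2 (-5.89 ± 0.16 on wild-type) and Tyrobp (-5.35 ± 0.19). Between sections Sirpb1a was the 1 that passed in neonatal cells (0.65 ± 0.11), and in adult cells 4 were higher: Cd300lb (2.28 ± 0.26), a relative of Cd300lf, Itgb2 (2.24 ± 0.16), Tyrobp (0.72 ± 0.19) and Itgam (0.66 ± 0.20). Of 15 other ITIM receptors, 11 were lower in adult cells on each section, among them Cd72 and Pirb (-4.35 ± 0.25 and -3.27 ± 0.23 on wild-type). Cd300a, a relative of Cd300lf among these 15, was higher on APdE9 sections in neonatal (0.64 ± 0.088) and adult cells (0.54 ± 0.088).

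Other Fc receptors and lectins did not follow the members as a body. Of 11 other Fc receptors measured, Fcrls (-3.94 ± 0.25 on wild-type), a microglial Fc receptor-like gene, was lower in adult cells and Fcgrt (0.89 ± 0.13), which recycles IgG, was higher. None of the 11 passed limma's test between sections, and at an unadjusted p under 0.05 there were 0 in neonatal cells and 1 in each direction in adult cells. Of 31 other C-type lectins, 4 were lower and 4 higher with age on wild-type sections, led by Cd69 (-4.01 ± 0.83) and Clec11a (1.97 ± 0.16). None of the 31 passed limma's test between neonatal groups (1 higher at an unadjusted p under 0.05). Between adult groups 2 were higher, against 8.26% of all genes, and 2 were lower, led by Ly75 (-1.61 ± 0.13). Of 6 immunoglobulin chain genes measured, whose products the Fc receptors bind, 0 passed limma's test between sections (1 lower at an unadjusted p under 0.05 in neonatal cells and 0 in adult cells).

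Downstream of the receptors, of 26 ITAM kinases and adaptors 15 were lower and 2 higher in adult cells on wild-type sections, with Blnk (-3.02 ± 0.30), an adaptor of Syk, Pik3r5 (-2.12 ± 0.37), Lcp2 (-2.09 ± 0.29) and Vav1 (-1.87 ± 0.18) lowest. On APdE9 sections 2 of the 26 were higher in neonatal cells, Btk (0.47 ± 0.11) and Vav3 (0.42 ± 0.10), against 1.21% of all genes. In adult cells 4 were higher, with Pik3r5 (1.64 ± 0.37) and Vav3 (1.19 ± 0.10) leading, against 8.26% of all genes, while 2 were lower. Of 9 phosphatases and adaptors that ITIMs recruit, 4 were lower with age, among them Ptpn6 (-2.03 ± 0.18) and Inpp5d (-1.36 ± 0.13), and 1 higher. None of the 9 passed limma's test between sections, with 1 lower at an unadjusted p under 0.05 at each age. The Card9 branch, 11 genes measured, had 2 lower and 2 higher with age on wild-type sections. Between adult groups Rela (0.52 ± 0.098) and Ikbkg (0.43 ± 0.077) were higher in that branch, and between neonatal groups 0 passed limma's test (0 at an unadjusted p under 0.05).

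Among products and effectors, few passed between sections. A list of 18 genes held cytokines, chemokines and other products that the lectins are known to induce, such as Ptgs2, Egr1 and Nlrp3. Of these, 0 passed limma's test between neonatal groups (1 higher at an unadjusted p under 0.05), and Cxcl1 (-1.87 ± 0.56) was lower between adult groups. With age on wild-type sections 7 of the 18 were lower and 1 higher, with Ccl3 (-6.72 ± 0.45) and Il1b (-4.03 ± 0.52) lowest. Their mean stood at 1.36, 0.87 and -0.12 on neonatal wild-type and at 0.94, 0.88 and 0.07 on neonatal APdE9 arrays, low on the arrays numbered 3 as Clec4e was. On the adult arrays numbered 3 the mean was lowest as well, at -0.72 on wild-type and -0.90 on APdE9 sections. There Clec4e was the highest of its group on wild-type (-1.46) and the lowest on APdE9 sections (-1.44). Of 7 genes of the phagocyte NADPH oxidase, 5 were lower and 1 higher with age on each section, led by Cybb (-4.63 ± 0.28 on wild-type), and 0 passed limma's test between sections (2 higher in neonatal and 1 higher in adult cells at an unadjusted p under 0.05). Of 12 myeloid transcription factors, Irf8 (0.70 ± 0.15) and Cebpa (0.51 ± 0.10) were higher on APdE9 sections in neonatal cells, and Cebpa (0.64 ± 0.10) was higher and Nfkbiz (-0.99 ± 0.27) lower in adult cells. With age 6 of the 12 were lower on wild-type sections, among them Irf8 (-2.64 ± 0.15) and Spi1 (-1.65 ± 0.16), the gene of PU.1.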

How the data were processed

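Total RNA of 12 samples was measured on one-colour Affymetrix arrays. Per the submitters' processing notes, the authors computed the deposited values with RMA, and they were taken as log2 signals; the log base and the RMA version are not given in the sources used here. All 45095 probe sets with 12 values had a median of 0 (tolerance 1e-06), which shows centring by probe set, and array medians lay between -0.0385 and 0.0341. The deposited columns of 4 arrays were recorded as a score because 6 values there, none in a member, were whole numbers above 100 that seem to have lost a decimal point. They were set to missing, and genes with other probe sets took their value from those. Of 45101 probe sets, 64 were controls, 34945 had 1 gene symbol, 932 several and 9160 none; 34741 matched RefSeq.

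Probe sets naming a gene alone were averaged to give its value. limma 3.58.1 in R 4.3.3 fitted 4 group means to all 12 arrays, with 8 residual and 3.97 prior degrees of freedom, with Benjamini-Hochberg adjustment over 18193 genes (threshold 0.05). On simulated data the fit recovered 91%, 91%, 80%, 96% and 89% of genes changed by 1 (log2) in the neonatal, adult, difference, wild-type age and APdE9 age comparisons. The simulated noise was independent between arrays, with the same SD in all 4 groups for a gene. These shares therefore do not cover smaller changes, shared replicate effects or genes with uneven group spreads. The correlations of deviations of same-numbered arrays were 0.305, 0.147 and 0.519 between neonatal groups and 0.460, 0.206 and 0.473 between APdE9 groups. Each was over 0.1, so the numbers may pair these arrays. Arrays of different numbers were not compared in this way, so the pairing was not settled. The labels state no pairing, so the main fit held no replicate block, and the fit with the block is given as an alternative.

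The members and lists were chosen with earlier results of these data known. Named besides the members were up to 4 passing genes per list and comparison, by size, not all of which are printed, and the 3 genes nearest to each member in mean absolute difference. Alternatives of scaling were quantile normalization of the centred gene values and median centring. Others were a replicate block, only the arrays compared, array weights, robust variance, other probe set rules and restored decimal points. A filter leaving out the 40% of genes with the lowest SD was also used, and each array was left out in turn. The number of arrays limits the precision, and signal over background could not be read from centred values.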

Additional observations from a re-analysis of the deposited data

Results flagged for a closer look

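The section difference of Cd300lf differed between neonatal and adult cells: the adult minus the neonatal value was -1.52 (log2, 95% interval -2.24 to -0.81, limma adjusted p = 0.0120). The members were proposed with its neonatal difference already known, so this value is a description. Isolation and medium went with age and cannot be told apart from it. Cd300lf was higher on all 3 neonatal APdE9 arrays than on the 3 neonatal wild-type arrays, while the adult groups overlapped. Over the arrays left out in turn this value stayed between -1.69 and -1.25, with limma adjusted p between 0.0102 and 0.0292.

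Clec4d differed the other way, with an adult section difference larger than the neonatal by 1.00 (log2, 95% interval 0.54 to 1.47, limma adjusted p = 0.0109). The 3 adult APdE9 arrays were all higher than the adult wild-type arrays, while the neonatal groups overlapped. The value lay between 0.79 and 1.15 over the arrays left out, with limma adjusted p between 0.00406 and 0.0312, and it was 0.59 after quantile normalization (limma adjusted p = 0.0116).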

How the results depend on the processing

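Of 1145 values of single members under an alternative, 1089 kept their direction and their side of the threshold, 17 newly passed, 9 no longer passed and 30 changed sign. All 10 members stayed lower in adult cells on both sections under every alternative fit at the gene level. The neonatal count of members that passed, 3, became 5 with the replicate block, 7 with array weights, 1 on the 8 arrays numbered 1 and 2 (added after the data were seen) and 2 to 5 with an array left out. The adult count of 1 became 2 with the replicate block, which brought Fcgr4 past the threshold (limma adjusted p = 0.0407). It became 2 on the arrays compared alone and 1 to 2 with an array left out. Of all 18193 genes, 4217, 3007 and 2174 to 3382 passed in either direction in these adult fits. In the neonatal comparison 1013 of all genes passed with the replicate block and 2160 with array weights. The count of 2 members for the difference of section differences became 2 to 3. The correlations of same-numbered arrays were 0.348, -0.148 and 0.496 between adult groups, and 0.404, 0.0247 and 0.405 between wild-type groups. Only the arrays numbered 2 fell under 0.1, and whether the numbers pair these arrays was left unsettled here too. The block changed no call of a member in either age comparison or in the difference of the section differences.

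Among all genes the neonatal count of 684 became 272 on the arrays compared alone, 2160 with array weights, 244 on the arrays numbered 1 and 2, and 263 to 761 with an array left out (263 without wild-type number 2, 411 and 436 without APdE9 numbers 1 and 2). Its split of 220 higher and 464 lower became 314 and 422 after quantile normalization. The count of 1831 for the difference of section differences became 3427 with array weights, 1173 on the arrays numbered 1 and 2, and 1208 to 1811 with an array left out (1208 without neonatal wild-type number 2, 1218 without adult wild-type number 2).

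Apart from the age difference of Fcgr2b, signs changed in values that had missed the test, and the cause was not tested. Neonatal Clec4d became -0.027 after quantile normalization, neonatal Clec4e -0.28 with array weights and -0.49 to 1.21 with an array left out. Adult Cd300lf became 0.091 with array weights, 0.17 on the arrays numbered 1 and 2 and -0.18 to 0.25 with an array left out; adult Clec7a became -0.026 and adult Clec4n -0.12 after quantile normalization. The neonatal difference of Fcgr2b was -0.063 in probe set 1447622_at, the adult -0.19 in 1455332_x_at, and the age difference on APdE9 sections 0.092 in 1447622_at. Its difference of section differences was 0.18 in 1435477_s_at, the probe set with the largest SD, 0.14 in 1447622_at and 0.072 on the arrays numbered 1 and 2. For Clec4e that value was -0.088 after quantile normalization and -0.53 in 1420331_at. With an array left out it ran from -0.31 to 0.14 in Fcgr2b, -0.95 to 0.096 in Fcgr3, -0.28 to 0.064 in Clec7a and -0.65 to 1.04 in Clec4e.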
